A study of Mus musculus with 8 samples.

Results

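The 9 genes described here encode transcription factors of the biliary epithelium: Sox9, Sox4, Onecut1, Onecut2, Foxa2, Ehf, Elf3, Grhl2 and Klf5. They were chosen by name and found by symbol among the 46603 genes of the count table, and all 9 had reads in each of the 8 libraries. The study asked how biliary cells that retain a histone label differ from biliary cells that have lost it. Bigenic mice (R26rtTA het/H2B-EGFP het, on a mixed C57BL/6 and CBA background) express the reverse tetracycline transactivator from the ubiquitous Rosa26 locus, which switches on a histone 2B-EGFP fusion when doxycycline is given. Both groups came from animals that drank doxycycline through the nursing mother from birth (postnatal day 0) to postnatal day 5 and were taken at 8 weeks of age, so dividing cells had time to dilute the label. Liver cells were sorted as EpCAM-positive and CD45-negative. The EGFP-positive fraction is called LLRC (liver label-retaining cells) and the EGFP-negative fraction non-LRC. Each of 4 mice (JV602, JV621, JV624 and JV6314) gave 1 library of each fraction, 4 LLRC and 4 non-LRC libraries in all. Blood cells of the marrow can make the fusion protein even when no doxycycline is given, the transgene is not specific to ducts, and the label marks cells by their division history and not by a lineage.

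Bile duct cells arise in the embryo from hepatoblasts that line the portal vein. SOX factors and the ONECUT factors take part in this choice and in the shaping of ducts, while FOXA proteins open chromatin at liver genes in both hepatocytes and duct cells. ETS factors of the epithelium-specific branch, grainyhead-like factors and Kruppel-like factors act more widely, in epithelia that line tubes and surfaces, where they keep junction and barrier genes active.

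None of the 9 factors differed between LLRC and non-LRC libraries past the threshold. In edgeR's quasi-likelihood test with Benjamini-Hochberg adjustment over all genes, 0 of 13605 genes tested (0.0%) passed an adjusted p of 0.05, and the smallest adjusted p over all genes was 0.0809. At an unadjusted p under 0.05 there were 702 genes (5.16%), with no member among them. The DESeq2 Wald test called 221 genes (1.62%), also without a member. The quasi-likelihood fit above used edgeR's older dispersion option, and the newer option called 72 genes, again without a member. The paper, using an earlier edgeR version at the same cutoff, did report genes that differed between the fractions. Foxa2 and Grhl2 had the largest fitted differences among the 9, and both were higher in the LLRC library of every mouse. Sox9 and Elf3 also had the higher value in the LLRC library in 4 of 4 mice. Their margins were smaller than those of Foxa2 and Grhl2 in JV602 and JV621. In JV6314 Elf3 had the widest margin of these genes, 3.67-fold. Onecut1 leaned the other way in 3 of 4 mice. For the remaining 4 factors the direction changed from mouse to mouse or between settings.

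Library totals ran from 7860021 to 9851819 counts in LLRC and from 4670132 to 8056103 in non-LRC, and 3 counts stood for 0.291 to 0.626 CPM (counts scaled to library size, with TMM factors), the limit that a count of 0 allows. Every level below is such a normalized count. That limit covers counting error only, while the 95% intervals of fold changes come from the edgeR fit and include the spread between libraries. The sorted cells carried the duct markers in both groups. All 22 duct identity genes were measured and passed the filter on low counts, Epcam stood at 581 ± 48.0 CPM in LLRC and 547 ± 148 CPM in non-LRC (SD, n = 4), and Krt19 at 116 ± 27.9 and 133 ± 32.6 CPM. Ptprc, which encodes the CD45 that the sort removed, had 5, 34, 14 and 59 reads in LLRC and 0, 0, 0 and 7 reads in non-LRC, with the mice ordered as above.

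RNA of other cell types was not spread evenly. The 18 endothelial markers summed to 35.6 to 67.9 CPM in LLRC and to 220 to 933 CPM in non-LRC, and all 18 had reads in at least 1 LLRC library. The 15 hepatocyte markers measured summed to 3107 to 3584 CPM in LLRC and 2287 to 8282 CPM in non-LRC, with the JV624 and JV6314 non-LRC libraries at 8282 and 7020 CPM. For the 12 stellate and portal fibroblast markers the sums were 276 to 905 CPM and 703 to 2894 CPM. The 12 pancreatic acinar markers stayed between 2.12 and 23.3 CPM in 7 libraries but reached 2001 CPM in the non-LRC library of JV6314, and 6 of them (Cpb1, Cpa1, Cel, Cela3b, Prss2 and Ptf1a) had no read in any LLRC library. Leukocyte and Kupffer markers were low, at 12.2 to 30.8 CPM and 17.9 to 46.9 CPM for the sum of 12, with Adgre1, Clec4f, C1qa, C1qb, Cd3e and Cd79a at 0 in all LLRC libraries. The part of this RNA in the member values that follow was not tested. In bulk RNA fewer cells of a type and less RNA per cell cannot be told apart.

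**Figure D1:**
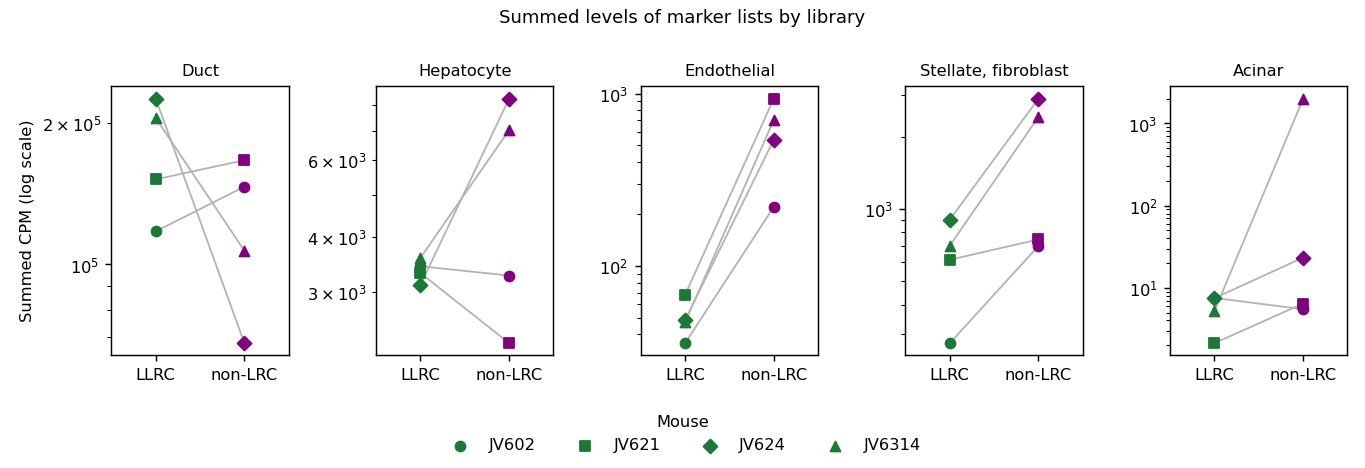
Summed normalized counts (CPM, log scale, each panel with its own range) of the duct, hepatocyte, endothelial, stellate and fibroblast, and pancreatic acinar marker lists in each LLRC and non-LRC library, with the 2 libraries of a mouse joined by a line. Endothelial sums were higher in the non-LRC library of all 4 mice, and acinar RNA reached 2001 CPM in the non-LRC library of JV6314. The duct sum was mostly Spp1, which took 12.98% to 18.91% of the counts in LLRC and 7.849% to 13.93% in non-LRC.

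Before the values, 2 promoters are shown, those of Foxa2 and Onecut1. Promoters of 4 of the 9 members (Sox4, Onecut1, Foxa2 and Elf3) were searched, taken from a RefSeq table (build GRCm38.p6). Among these 4, Foxa2 and Onecut1 had the largest fitted difference in each direction. The count of 4 is of members searched and is not a count of the members that the table holds. The 250 bases before the annotated start are printed 5′ to 3′ on the strand of the gene, with matches to 6 motifs in capitals. For Foxa2, which has 3 starts in that table, the start at the outer end of the gene is shown (chr2:148046970-148047219, minus strand), and for Onecut1 the single start (chr9:74861671-74861920, plus strand).
Foxa2: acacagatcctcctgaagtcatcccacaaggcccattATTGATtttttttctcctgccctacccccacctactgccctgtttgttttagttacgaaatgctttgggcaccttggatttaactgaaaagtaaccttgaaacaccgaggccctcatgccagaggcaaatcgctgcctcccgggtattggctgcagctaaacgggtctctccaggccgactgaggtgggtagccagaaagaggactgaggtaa
Onecut1: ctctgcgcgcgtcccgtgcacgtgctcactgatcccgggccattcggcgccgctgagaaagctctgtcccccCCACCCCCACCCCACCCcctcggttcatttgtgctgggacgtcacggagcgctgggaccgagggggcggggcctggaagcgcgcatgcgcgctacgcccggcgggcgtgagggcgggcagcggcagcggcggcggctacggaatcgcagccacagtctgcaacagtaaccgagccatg
The motifs were searched on both strands: AACNNGTT for grainyhead-like factors, TGTTTAC for forkhead, ATTGAT for ONECUT, ACAAAG for SOX, GGAAGT for ETS and CCACCC for KLF proteins. No motif contains another. The Foxa2 stretch held 1 match, to the ONECUT letters, starting 213 bases before the start. Of the 32851 promoters searched, 6.72% held such a match in their 250 bases. The stretches before the other starts of Foxa2 in the table, not printed, held no match to the ONECUT letters and 7 matches to others (4 KLF, 2 ETS and 1 SOX). The Onecut1 stretch held 3 matches to the KLF letters, starting 178, 172 and 167 bases before the start, where neighbouring matches touch or share a base, and 28.1% of the promoters held at least 1. Of the other letters, those for grainyhead-like factors were found in 3.64% of promoters, forkhead in 3.17%, SOX in 16.5% and ETS in 19.7%. A match of letters is a description of the sequence and does not show binding.

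Sox9, an HMG-box factor that marks duct cells from the first ductal plate onwards, lies at chr11:112782224-112787760 (plus strand, GENCODE M21 on GRCm38). Its LLRC libraries held 274, 342, 588 and 263 CPM (JV602, JV621, JV624, JV6314), and the non-LRC libraries of the same mice held 251, 318, 394 and 141 CPM. The LLRC value was the higher one in each mouse, by 1.08-fold in JV621, 1.10-fold in JV602, 1.49-fold in JV624 and 1.86-fold in JV6314, yet the groups overlapped because mice differed more than fractions did. Both groups ranked the mice in one order, with JV624 highest and JV6314 lowest. Means were 367 ± 151 CPM in LLRC and 276 ± 108 CPM in non-LRC (SD, n = 4). The log2 fold change, LLRC over non-LRC, was 0.40 ± 0.39 (SE), with a 95% interval from -0.47 to 1.28 and an edgeR adjusted p of 1.00. Without the JV624 LLRC library the log2 fold change was 0.09, while it was 0.19 without the JV6314 and 0.62 without the JV624 non-LRC library.

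Sox4, a SOX factor of another subgroup that works with Sox9 in the forming duct, lies at chr13:28948919-28953713 (minus strand). It stood at 10.7, 7.18, 26.1 and 14.5 CPM in LLRC and at 13.5, 28.2, 16.0 and 10.7 CPM in non-LRC, with mice in that same order. The widest gap was in JV621, where the non-LRC library was the highest and the LLRC library the lowest of the 8. JV624 and JV6314 had more in LLRC, and the groups overlapped over most of their range. The log2 fold change was -0.23 ± 0.51 (SE; 95% interval -1.37 to 0.91), and it turned to 0.35 without both JV621 libraries and to 0.13 without the JV621 non-LRC library alone.

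Onecut1, also known as HNF6, is a cut-homeodomain factor needed for normal duct development and lies at chr9:74861921-74891781 (plus strand). Its levels were 12.2, 13.9, 15.5 and 9.74 CPM in LLRC and 16.0, 22.2, 22.9 and 9.55 CPM in non-LRC, in the order JV602, JV621, JV624 and JV6314. The non-LRC library was higher in 3 mice, and in JV6314 both fractions were nearly equal. As for Sox9, the mice took one order in both groups, again with JV624 at the top and JV6314 at the bottom. The means of 12.8 ± 2.48 CPM and 17.6 ± 6.23 CPM (SD, n = 4) gave a log2 fold change of -0.46 ± 0.40 (SE; 95% interval -1.37 to 0.44).

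Onecut2, the paralog of Onecut1 that overlaps with it in function, lies at chr18:64340020-64400987 (plus strand). It stood at 220, 412, 355 and 244 CPM in LLRC and 300, 446, 115 and 146 CPM in non-LRC (JV602, JV621, JV624, JV6314). The LLRC libraries spanned 1.87-fold and the non-LRC libraries 3.87-fold. JV624 had 3.08-fold more and JV6314 1.68-fold more in LLRC, while JV602 and JV621 had slightly more in non-LRC. The log2 fold change was 0.29 ± 0.45 (SE; 95% interval -0.72 to 1.30). It was 0.04 without the JV624, 0.11 without the JV6314 and 0.72 without the JV621 non-LRC library, and 0.12 without the JV621 LLRC library.

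Foxa2, the forkhead factor, lies at chr2:148042877-148046969 (minus strand), just beyond the promoter printed above. LLRC libraries held 73.4, 54.4, 81.2 and 62.4 CPM and non-LRC libraries 61.7, 25.1, 47.6 and 28.4 CPM for JV602, JV621, JV624 and JV6314. Only the JV602 non-LRC library reached into the LLRC range, where it lay above the JV621 LLRC library. Within mice the LLRC value was 1.19-fold, 2.16-fold, 1.71-fold and 2.19-fold the non-LRC value in that order. Means were 67.8 ± 11.8 CPM and 40.7 ± 17.1 CPM (SD, n = 4), a log2 fold change of 0.73 ± 0.35 (SE; 95% interval -0.07 to 1.53). The edgeR adjusted p was 1.00. In 21 other settings, which include DESeq2 and limma, the adjusted p lay between 0.431 and 1.00, with log2 fold changes from 0.48 to 0.99. The exact two-sided permutation test on mean log2 CPM over all 70 splits gave p = 0.0571 before any correction over the 9 factors, where 4 against 4 libraries can reach 0.0286 at the lowest. These splits exchange libraries across mice and do not use the pairing by mouse.

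Foxa1, the close relative that shares much of the binding of Foxa2, is not one of the 9 and is given here after its values were seen. It stood at 37.2, 67.4, 118 and 40.6 CPM in the LLRC libraries and at 27.1, 3.74, 26.1 and 20.9 CPM in the non-LRC libraries, for JV602, JV621, JV624 and JV6314. All 4 LLRC libraries lay above all 4 non-LRC libraries, as they did for 2.18% of the genes tested, a pattern that no member showed. The opposite arrangement held for 1.89% of genes tested and again for no member. The log2 fold change of Foxa1 was 1.75 ± 0.62 (SE) with an edgeR adjusted p of 0.778, and it ran from 1.32 to 1.96 in the other settings. The non-LRC library of JV621 had the lowest value of both Foxa1 (18 reads) and Foxa2 (121 reads). That library also had the fewest genes with a read, 14234 against 16042 to 20430 in the others. It held the lowest values of Grhl2 and Klf5 as well, but the highest of Sox4, Onecut2 and Ehf. Whether the number of genes read bears on these values was not tested.

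Ehf, an ETS factor of the epithelium-specific branch, lies at chr2:103263433-103303278 (minus strand). Its values were 351, 324, 214 and 591 CPM in LLRC and 381, 629, 131 and 303 CPM in non-LRC (JV602, JV621, JV624, JV6314). The highest and the lowest of the 8 values both fell in non-LRC, a 4.80-fold span, and JV624 was lowest in each group. The mice did not share a direction, since JV602 and JV621 had less in LLRC and JV624 and JV6314 had more. The means of 370 ± 159 and 361 ± 207 CPM (SD, n = 4) lay close together, and the log2 fold change of 0.03 ± 0.48 (SE) had a 95% interval from -1.05 to 1.11, so a doubling in either direction lay within it.

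Elf3, the second ETS factor, which responds to injury and inflammation in several epithelia, lies at chr1:135253575-135258568 (minus strand). LLRC libraries had 23.4, 23.2, 13.6 and 9.29 CPM and non-LRC libraries 20.8, 22.0, 10.8 and 2.53 CPM. Each mouse had the higher value in LLRC, by 1.13-fold, 1.05-fold, 1.26-fold and 3.67-fold in JV602, JV621, JV624 and JV6314. The JV6314 non-LRC value rested on 13 reads, in the library with 2001 CPM of acinar markers. With it the log2 fold change was 0.31 ± 0.64 (SE; 95% interval -1.13 to 1.74), and without it the value was -0.04.

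Grhl2, a grainyhead-like factor that keeps E-cadherin and claudin genes active in epithelia, lies at chr15:37233036-37363569 (plus strand). It stood at 24.8, 19.3, 14.5 and 23.9 CPM in LLRC and 17.7, 6.44, 13.8 and 11.7 CPM in non-LRC (JV602, JV621, JV624, JV6314). Every mouse had more in LLRC, 1.40-fold, 3.00-fold, 1.05-fold and 2.04-fold, and the groups overlapped through JV624 and JV602. The means were 20.6 ± 4.74 and 12.4 ± 4.69 CPM (SD, n = 4). The log2 fold change was 0.73 ± 0.41 (SE; 95% interval -0.20 to 1.65) and stayed positive in all 21 other settings, from 0.33 to 0.94. The exact permutation test gave p = 0.0571 before correction, and the edgeR adjusted p was 1.00. For the 7 factors other than Foxa2 and Grhl2 the exact permutation p lay between 0.257 and 0.857.

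Klf5, a zinc-finger factor of proliferating epithelia, lies at chr14:99298691-99315036 (plus strand) and was the lowest of the 9. Its levels were 6.27, 5.41, 4.25 and 5.64 CPM in LLRC and 5.98, 3.53, 7.98 and 3.70 CPM in non-LRC, from 17 to 65 reads a library. JV624 had more in non-LRC and the other mice had more in LLRC. The log2 fold change was 0.02 ± 0.48 (SE; 95% interval -1.06 to 1.10).

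**Figure D2:**
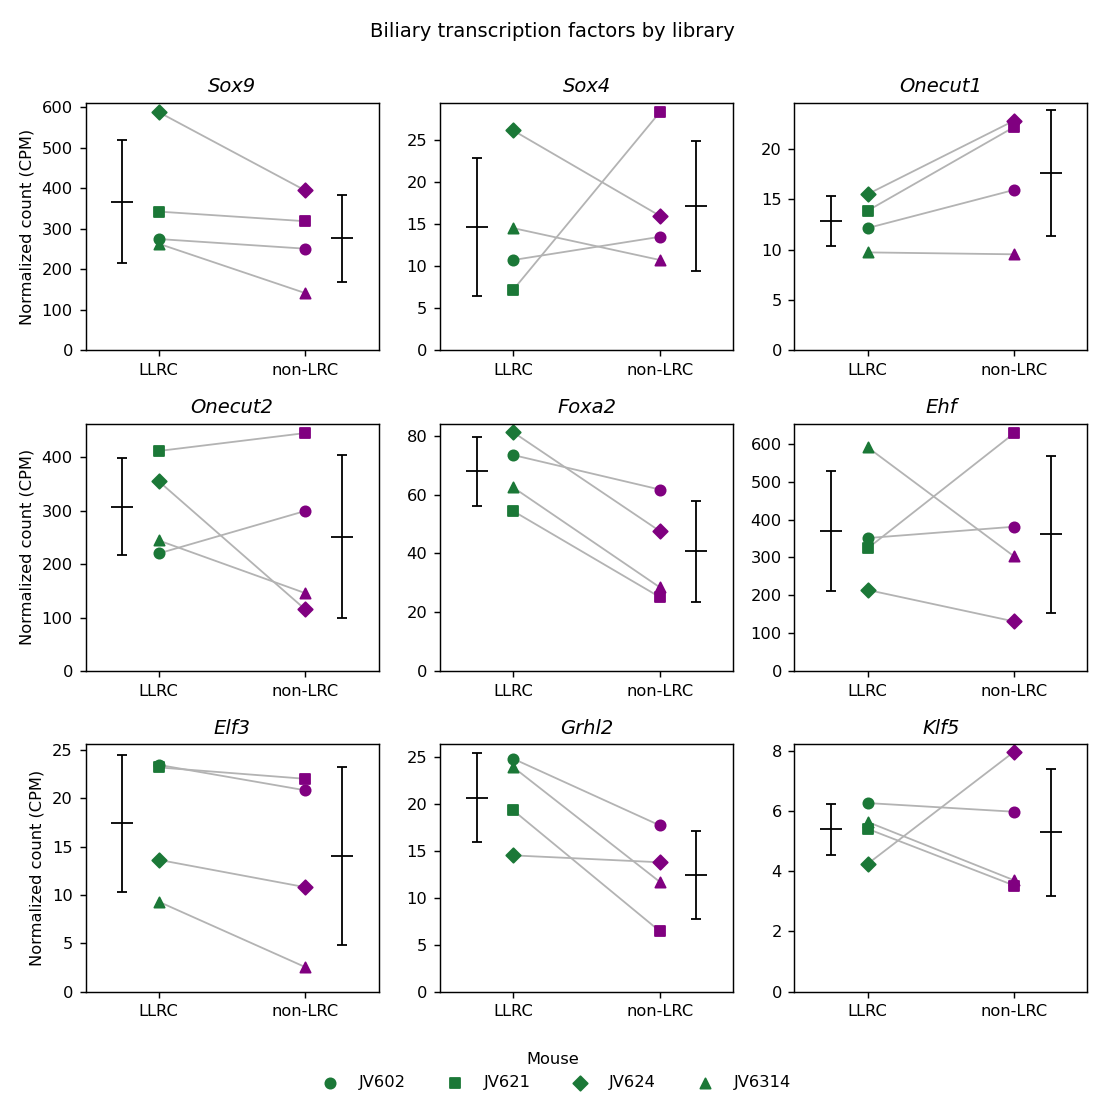
Normalized counts (CPM, linear axes from 0) of the 9 factors in each LLRC and non-LRC library, with a symbol for each mouse, a line joining its 2 libraries, and the mean with its SD (n = 4) at the sides. Foxa2, Grhl2, Sox9 and Elf3 were higher in the LLRC library of all 4 mice, while in Sox4, Onecut2, Ehf and Klf5 some mice were higher in LLRC and others in non-LRC.

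**Figure D3:**
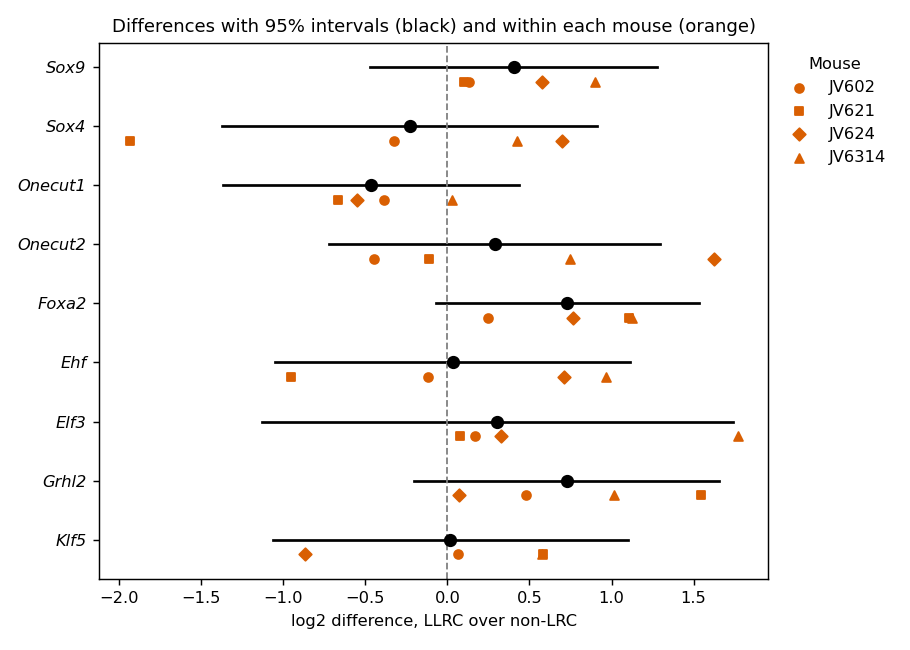
Log2 difference, LLRC over non-LRC, of each factor: the edgeR estimate with its 95% interval (black point and line) and the difference within each mouse (orange symbols). All 9 intervals include 0, and Foxa2 comes nearest to leaving it out, with a lower end of -0.07.

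Read over mice, 4 of the 9 factors were higher in LLRC in all 4 animals, where 7.86% of the 13605 genes tested were, and none was lower in all 4, where 5.47% were. The mean difference within mice was 0.81 ± 0.41 for Foxa2, 0.78 ± 0.64 for Grhl2, 0.59 ± 0.80 for Elf3 and 0.43 ± 0.38 for Sox9 on the log2 scale (SD over 4 mice). It was -0.39 ± 0.30 for Onecut1, -0.28 ± 1.18 for Sox4, 0.45 ± 0.93 for Onecut2, 0.15 ± 0.87 for Ehf and 0.09 ± 0.68 for Klf5. With 4 mice an exact test that flips signs cannot reach the threshold of 0.05, so none was run. The median log2 fold change of the 9 was 0.29, against -0.01 for all genes tested. The median of the 9 moved with single libraries. It was -0.04 without the JV6314 non-LRC library, with 4 of 9 positive. It was 0.12 without the JV621 LLRC library, with 8 of 9 positive, and 0.13 without the JV602 LLRC library. In the other direction it was 0.39 without the JV6314 LLRC library and 0.49 without the JV621 non-LRC library. Only Sox9 and Onecut1 put the 4 mice in the same order in both groups, which was seen for 5.28% of genes tested and was noticed after the values were known.

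The factors differed far more from each other than between the fractions. Per kilobase of exon not shared with another gene, the means over the 8 libraries were 77.7 CPM for Sox9, 65.6 for Ehf, 22.9 for Foxa2, 17.2 for Onecut2, 7.84 for Onecut1, 7.65 for Elf3, 7.28 for Sox4, 1.96 for Grhl2 and 1.03 for Klf5. Sox9 and Ehf did not differ beyond their spread, since Sox9 was the higher one in 4 of 8 libraries. Ehf was above Foxa2 in 8 of 8, Foxa2 above Onecut2 in 6 of 8, and Onecut2 above Onecut1 in 7 of 8. On this length Onecut1, Elf3 and Sox4 could not be ordered, with 5 of 8 and 3 of 8 libraries following the order of the means. Sox4 stood above Grhl2 and Grhl2 above Klf5 in all 8. With the longest transcript as the length, which also counts the shared bases of Sox4, Sox4 came to 3.31 and Grhl2 to 3.34 CPM per kilobase, and Ehf (81.8) stood above Sox9 (77.7).

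**Figure D4:**
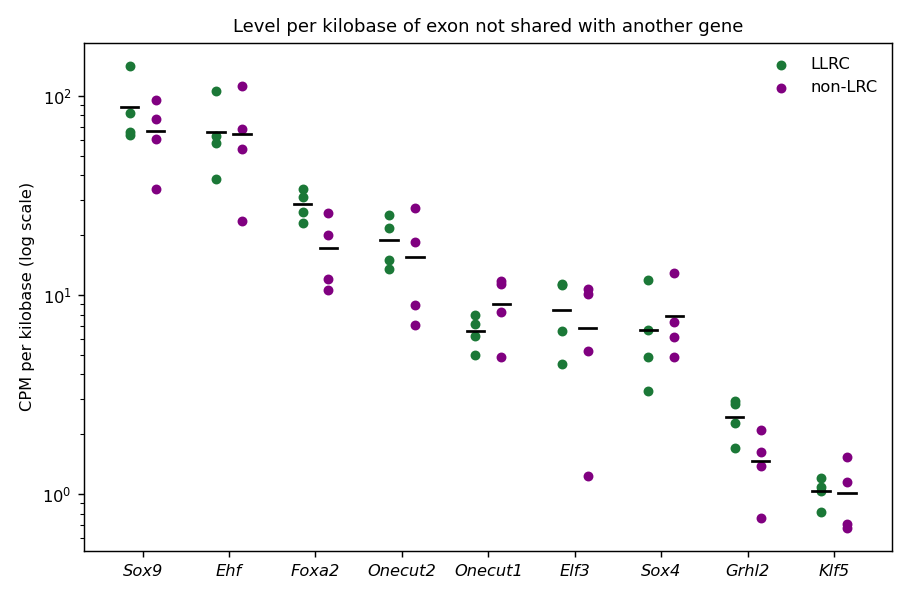
Level of each factor per kilobase of exon that no other gene shares (CPM per kilobase, log scale) in the 4 LLRC and 4 non-LRC libraries, with a bar at each group mean. Sox9 and Ehf lie highest, between 66.8 and 88.7 and between 64.7 and 66.4 CPM per kilobase in the group means, and Klf5 lowest at about 1.02 to 1.04.

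The length used matters for Sox4 and Onecut1. The authors counted reads without strand and in union mode, which gives no gene a read that falls in exons of more than 1 gene. In GENCODE M21, 54.6% of the exon bases of Sox4 are shared with the antisense long noncoding RNA Gm26735, and 52.8% of those of Onecut1 with Gm20649 on its own strand, and both noncoding genes have a row in the count table with 0 reads in all libraries. The Ensembl release behind the counts is not given in the sources used here, so the shared bases in the annotation the authors counted on may differ. With all exon bases as the length, the choice made first, Elf3 came to 7.09, Onecut1 to 3.70 and Sox4 to 3.31 CPM per kilobase, so that Elf3 ranked 5 in place of 6 and Onecut1 6 in place of 5. The longest transcript gave 7.50, 3.85 and 3.31 CPM per kilobase for the same genes. Elf3 shared 7.31% of its exon bases with Gm26642 and Grhl2 1.96% with Gm16136. The comparison between groups uses the same bases in every library.

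Members did not move as 1 block over the libraries. Over the 36 pairs, Pearson's r of log2 CPM across the 8 libraries ran from -0.61 (Sox4 and Grhl2) to 0.81 (Foxa2 and Grhl2), with a median of 0.16. For Foxa2 and Grhl2, Spearman's rho was 0.74, and r was 0.25 once the JV621 and JV6314 non-LRC libraries, farthest from the median of Foxa2, were left out, so that relation rested on them. For Sox4 and Grhl2, rho was -0.60 and r without both JV621 libraries was -0.23. The libraries share depth and composition across genes, so these are descriptions only. The mean standardized level of the 9 lay between -0.03 and 0.37 in 7 libraries and at -1.15 in the JV6314 non-LRC library.

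The 5 genes whose log2 CPM was most like that mean were Rsrc1 (r = 0.99), Ttc26 (0.99), Slc38a9 (0.99), Abca5 (0.99) and Bcap29 (0.98) over 8 libraries. Their Spearman's rho ran from 0.79 to 0.90. Without the 2 libraries farthest from the median, JV6314 non-LRC and JV624 LLRC, r was 0.80, 0.86, 0.88, 0.60 and 0.54 in the same order.

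Relatives of the 9 factors in the SOX, ONECUT, FOXA, ETS, grainyhead-like and Kruppel-like families also gave no call. Of 26 relatives, 19 were tested, 9 had a positive and 10 a negative log2 fold change, and the median was -0.03. The most abundant were Klf6 at 252 ± 54.0 CPM in LLRC and 224 ± 172 CPM in non-LRC, Klf13 at 190 ± 49.0 and 193 ± 89.3 CPM, and Klf10 at 209 ± 79.1 and 140 ± 65.9 CPM (SD, n = 4). The largest fitted differences were -2.32 ± 0.77 (SE) for Klf2, which is abundant in endothelium, and 2.18 ± 1.06 for Elf4, with edgeR adjusted p of 0.688 and 1.00. Elf4 had 37, 65, 38 and 127 reads in LLRC and 15, 0, 28 and 2 in non-LRC. Its value was 3.26 without the JV624 non-LRC library, 1.40 without mouse JV6314 and 0.55 without JV621 and JV6314.

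Among 27 other liver and duct transcription factors, 23 were tested, none was called in edgeR's quasi-likelihood test, and the median log2 fold change was -0.10, with 11 positive and 12 negative. The most abundant were the Notch target Hes1 at 355 ± 129 and 416 ± 216 CPM, Hhex at 354 ± 124 and 386 ± 275 CPM and Prox1 at 243 ± 45.1 and 194 ± 89.6 CPM in LLRC and non-LRC (SD, n = 4). Gata4 had the largest difference, a log2 fold change of -4.39 ± 1.06 (SE; edgeR adjusted p = 0.276), from 0, 3, 5 and 1 reads in LLRC and 18, 22, 54 and 51 in non-LRC. DESeq2 (adjusted p = 0.000596), edgeR's exact test (0.00267) and the newer quasi-likelihood dispersion (0.0244) did call Gata4, the one call in this list. Gata4 is made by liver endothelium and stellate cells, whose marker sums are given above. Their part in the Gata4 values was not tested. Pax6 came next at 2.68 ± 1.41, with 11, 62, 17 and 17 reads in LLRC and 0, 0, 12 and 0 in non-LRC. Without the JV624 non-LRC library the non-LRC group had no read, and the fitted value of 7.59 then depended on the prior count.

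Genes that such factors are known to keep active were described in the same way. Of 25 epithelial junction and splicing genes all were tested, 0 were called, 19 had a positive and 6 a negative log2 fold change, and the median was 0.29. Cdh1, which encodes E-cadherin, stood at 788 ± 28.4 and 647 ± 302 CPM, the tight junction gene Ocln at 321 ± 39.5 and 234 ± 85.0 CPM, and the claudin gene Cldn3 at 259 ± 82.8 and 211 ± 68.3 CPM (SD, n = 4). The widest fitted differences were 1.08 ± 1.04 (SE) for the splicing factor Esrp2 and 0.85 ± 1.06 for Tjp3. Both moved with single libraries, Esrp2 to 1.89 without the JV602 and 0.68 without the JV621 non-LRC library. Tjp3 went to 1.83 without the JV624, 0.47 without the JV621 and 0.48 without the JV6314 non-LRC library, and to 0.54 without the JV621 LLRC library. With the mouse as a block Esrp2 was at 1.98 and Tjp3 at 1.90. Of the 22 duct identity genes 18 had a positive and 4 a negative value, with a median of 0.19 and no call in edgeR's quasi-likelihood test. Spp1 stood at 167700 ± 48680 and 115700 ± 42100 CPM, Anxa4 at 1703 ± 420 and 1522 ± 796 CPM and Tspan8 at 551 ± 87.1 and 770 ± 321 CPM.

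The largest differences in the duct list were those of the water channel gene Aqp1, at -4.07 ± 0.57 (SE; edgeR adjusted p = 0.0809), and of Ggt1, at 1.93 ± 0.98. Aqp1 is abundant in endothelium as well as in ducts. The endothelial markers Tek (-3.69 ± 0.45), Kdr (-3.78 ± 0.58) and Eng (-3.56 ± 0.67) were also lower in LLRC. So were Sox17 (-6.18 ± 1.88) and Emcn (-4.56 ± 0.97), which had the largest fitted differences of the endothelial list. The part of endothelial RNA in the Aqp1 values was not tested. Sox17 was at -3.14 without the JV621 non-LRC library and at -8.54 without the JV621 LLRC library. None of these passed in edgeR's quasi-likelihood test as reported, where 15 endothelial markers were tested, all were negative and their median was -3.56. Other settings called several. DESeq2 and edgeR's exact test each called 13 endothelial markers, and the newer quasi-likelihood dispersion called 9. Aqp1 passed with DESeq2 (adjusted p = 3.49e-10), with edgeR's exact test (2.14e-07) and with the newer dispersion (0.0212). It also passed edgeR's quasi-likelihood test with no filter on low counts (0.0490) and without the JV602 non-LRC library (0.0378).

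The mesenchymal transcription factors that oppose Grhl2 in epithelial cells were mostly too low to test, 3 of 9 passing the filter. Snai1, Twist1, Twist2, Prrx1 and Foxc2 had no read in any LLRC library, and Snai2 had reads but did not pass the filter. Zeb2 had 3, 19, 19 and 0 reads in LLRC and 178, 1835, 198 and 299 in non-LRC, a log2 fold change of -6.56 ± 1.44 (SE; edgeR adjusted p = 0.204). It was called by DESeq2 (adjusted p = 1.05e-05), edgeR's exact test (0.00191) and the newer quasi-likelihood dispersion (0.0447). Zeb2 was highest in the JV621 non-LRC library, which also held the most endothelial RNA and the lowest Grhl2. Whether these values are related was not tested. Zeb1, at -0.21 ± 0.69, and Tcf4, at 40.1 ± 16.8 and 42.0 ± 23.2 CPM (SD, n = 4), were the other two tested, and the median of the 3 was -0.21.

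The other marker lists had no call in edgeR's quasi-likelihood test as reported. DESeq2 called 1 hepatocyte marker, Cyp2e1 (adjusted p = 0.0106), and 1 stellate marker, Lrat (6.99e-07). The edgeR exact test also called both (0.0291 and 8.38e-05), and the newer quasi-likelihood dispersion called Lrat (0.0350). Among 15 hepatocyte markers 2 were positive and 13 negative (median -1.62); Alb stood at 2327 ± 196 and 2300 ± 594 CPM, Ttr at 366 ± 80.0 and 418 ± 109 CPM and Cyp3a11 at 92.3 ± 109 and 482 ± 583 CPM (SD, n = 4), and Apoa2 and Cyp2e1 had log2 fold changes of -2.79 ± 1.00 and -2.69 ± 0.72 (SE). Of 12 stellate and portal fibroblast markers 6 were tested (median -2.15), with Dcn at 340 ± 201 and 1266 ± 919 CPM, Reln at 234 ± 44.9 and 187 ± 71.2 CPM, Lum at 16.0 ± 16.2 and 83.0 ± 84.7 CPM (SD, n = 4), and Lrat and Pdgfra at -2.97 ± 0.49 and -2.87 ± 1.67 (SE). For leukocytes 2 of 12 were tested, Csf1r at -0.16 ± 0.44 and Ptprc at 3.27 ± 1.45 (median 1.55), and for acinar cells 1 of 12, Cela1 at -1.96 ± 0.87. Without the JV6314 non-LRC library Pdgfra came to -1.61 and Cela1 to -0.999. Ptprc then had no read left in non-LRC, and its fitted value of 7.66 depended on the prior count. With limma Pdgfra was at -1.18.

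**Figure D5:**
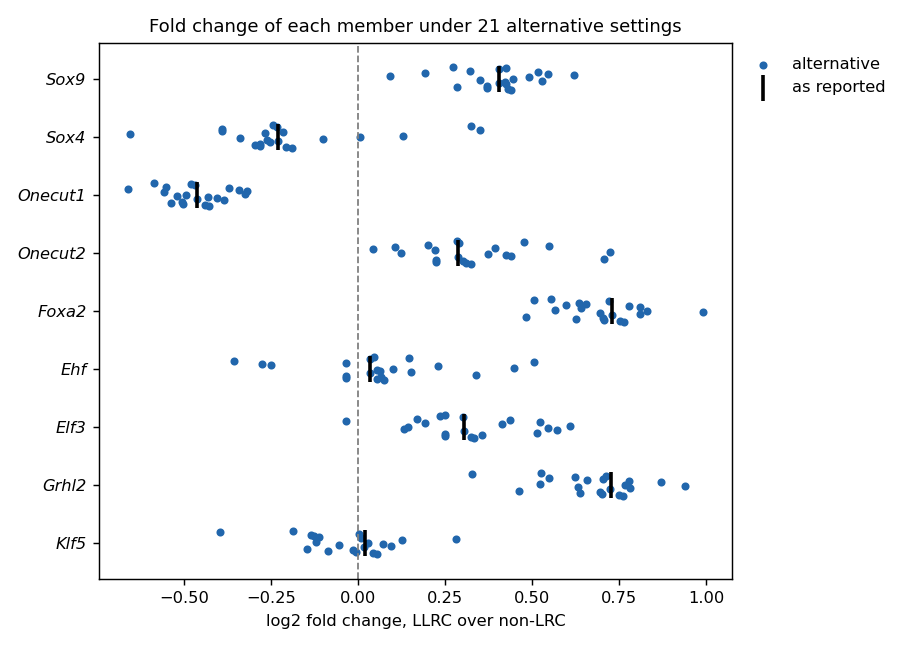
Log2 fold change, LLRC over non-LRC, of each factor as reported (black bar) and in 21 alternative settings (blue points, spread vertically for clarity). Foxa2, Grhl2, Sox9 and Onecut2 stayed above 0 and Onecut1 below 0 in all of them, while Klf5, Ehf, Sox4 and Elf3 had values on both sides. Without 1 library Sox9 came down to 0.09 and Onecut2 to 0.04.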

How the data were processed

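RNA-seq was done on 8 sorted libraries from 4 mice. The deposited file holds raw counts per gene that the authors made with HTSeq (union mode, no strand, exons, GRCm38.p4 with Ensembl genes) after mapping at a service facility; the aligner is not given in the sources used here. A second deposited table with the authors' edgeR results (log2 fold changes, abundance, p-values) was not used. Symbols and exon lengths came from GENCODE M21, which named 46005 of 46603 IDs. From the counts, genes were kept with filterByExpr and scaled by TMM (0.816 to 1.23). They were tested with edgeR 4.0.16 in R 4.3.3 (quasi-likelihood test, group as the only term, adjusted p under 0.05). The older (legacy) dispersion option was set in that fit. DESeq2 1.42.0 and limma 3.58.1 served as alternatives. Log2 CPM used a prior count of 2. Self-tests ran on simulated data. Same-numbered libraries share an animal; their deviations correlated at 0.0961, 0.0737, 0.00334 and 0.171. Named from each list were genes past the threshold, the 3 most abundant, and the 2 with the largest fitted difference. Members and lists were chosen with earlier results of these data known.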

Additional observations from a re-analysis of the deposited data

How the results depend on the processing

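No member was called in any of 21 alternative settings, including the edgeR fit with the mouse as a replicate block, which called 0 genes, as in the fit without it. With the block Elf3 was at 0.57, Onecut2 at 0.44, Ehf at 0.15, Klf5 at 0.09, Apoa2 at -1.72 and Pdgfra at -1.23. The number of genes called rose from 0 to 11 with no filter on low counts, 221 with DESeq2, 154 with edgeR's exact test and 72 with the newer quasi-likelihood dispersion, a setting chosen after seeing the data. Leaving out 1 library at a time gave 0 to 6 genes, the 6 without the JV602 non-LRC library. The median log2 fold change of all genes moved from -0.01 to 0.10 with limma, 0.14 with the block and -0.16 on the Epcam count.

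Of 189 recomputed member fold changes 167 kept their direction and 22 reversed. Why they did was not tested. Klf5 (0.02 as reported) became -0.0064 with DESeq2's size factors, -0.014 with its Wald test, -0.0875 by library size only, -0.15 with limma and -0.19 on the Epcam count. It was -0.05 without the JV602 LLRC library, -0.12 without the JV621 non-LRC and -0.11 without the JV6314 non-LRC library, and -0.13, -0.14 and -0.40 without mice JV621, JV6314 and both. Ehf (0.03) became -0.0364 with DESeq2's size factors and Wald test, -0.0358 without the JV6314 non-LRC library, -0.25 without the JV624 non-LRC, -0.28 without the JV6314 LLRC library and -0.36 without mouse JV6314. Sox4 (-0.23) became 0.0045 without the JV621 LLRC library, 0.13 without the JV621 non-LRC library, 0.35 without that mouse and 0.32 without JV621 and JV6314. Elf3 (0.31) became -0.0363 without the JV6314 non-LRC library. Over the settings that left out 1 library, Sox4 ran from -0.66 to 0.13, Ehf from -0.28 to 0.45, Elf3 from -0.0363 to 0.61 and Klf5 from -0.12 to 0.28. Those that kept their direction ran from 0.09 to 0.62 (Sox9), 0.04 to 0.72 (Onecut2), 0.57 to 0.99 (Foxa2), 0.52 to 0.94 (Grhl2) and -0.66 to -0.32 (Onecut1).

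Among other named genes, Zeb1 became 0.46 with limma, 0.07 without the JV602 LLRC library, 0.19 without the JV621 non-LRC library, 0.16 without mouse JV621 and 0.53 without JV621 and JV6314. Csf1r became 0.0348 without the JV602 non-LRC and 0.0398 without the JV624 LLRC library, and Tjp3 became -0.13 without JV621 and JV6314. With the longest transcript as the length, Ehf ranked 1, Sox9 2, Grhl2 7 and Sox4 8 per kilobase. With 1 library out, Zeb1 ran from -0.67 to 0.19 and Csf1r from -0.53 to 0.0398. Unshared exon bases, the Epcam scaling and leaving out mice JV621 and JV6314 together were added after seeing the data. Klf5 had 326 reads in all libraries together, the fewest of the members.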
